A study of Homo sapiens with 4 samples.

Results

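The IL6 family and the colony-stimulating factors were followed in PC3 cells, an established line of human prostatic adenocarcinoma cells, as 10 genes taken by name from a table of 43622 genes. Of these, 6 encode secreted ligands (IL6, IL11, LIF, CSF1, CSF2 and CSF3) and 4 encode receptor chains (IL6R, IL6ST, LIFR and OSMR), and all 10 passed the filter on low values. RNA-seq was compared in 4 conditions of 3 libraries each: PC3 cells of genotype wt given the vehicle DMSO (Ctrl) or 1 µM MLN4924 (MLN), and PC3 cells carrying the short hairpin RNA (shRNA) ShARF against p14ARF given DMSO (shARF) or 1 µM MLN4924 (Both), all for 3 days. The design text of the series speaks of a knockout and of 1 mM, whereas the sample labels and the methods speak of an shRNA and of 1 µM, which was used here. The hairpin was brought in stably by a retrovirus with drug selection, and no control hairpin is named for the Ctrl and MLN cells, so that p14ARF depletion, infection and selection cannot be told apart. The libraries carry undescribed numbers (Ctrl 1, 2 and 3, MLN 1, 2 and 5, shARF 1, 3 and 5, Both 2, 3 and 4), and nothing states that they came from separate cultures, so that p-values measure only the spread between these libraries, which may be technical.

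Cytokines of the IL6 family share the signal transducing receptor chain gp130, encoded by IL6ST. IL6 first binds the ligand-specific chain IL6R and IL11 binds IL11RA, whereas LIF brings LIFR together with gp130, and oncostatin M uses OSMR or LIFR together with gp130. The receptors act through JAK kinases and STAT transcription factors, above all STAT3, whose targets include the feedback inhibitor SOCS3. The colony-stimulating factors CSF1 (M-CSF), CSF2 (GM-CSF) and CSF3 (G-CSF) act on myeloid cells through receptors of their own, and many tumour lines secrete them. MLN4924 (pevonedistat) blocks the NEDD8-activating enzyme and thereby the cullin-RING ubiquitin ligases, and p14ARF is a tumour suppressor encoded by CDKN2A.

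On GRCh38, in the GENCODE annotation, IL6 lies on the plus strand at chr7:22725884-22732002, IL11 on the minus strand at chr19:55364382-55370463 and LIF on the minus strand at chr22:30240453-30246759. The gene of CSF1 spans chr1:109910242-109930992, that of CSF2 chr5:132073789-132076170 and that of CSF3 chr17:40015361-40017813, all on the plus strand. Among the receptors, IL6R is found at chr1:154405193-154469450 and OSMR at chr5:38845858-38945596 on the plus strand, and IL6ST at chr5:55935095-55995022 and LIFR at chr5:38474668-38608354 on the minus strand. Strandedness is not stated, so reads of a member and of a gene on the opposite strand that overlaps it cannot be told apart, and such genes had values for 5 members. STEAP1B overlaps IL6 and had a mean of 0.262 TPM in Ctrl and 1.70 in MLN, and of 0.0224 in shARF and 0.901 in Both, below IL6 in each condition, highest in MLN and lowest in shARF as IL6 was. LIF-AS1 stayed at or below a mean of 0.827 TPM, IL6R-AS1 at or below 0.718 and LIFR-AS1 at or below 2.92, while RICTOR, which overlaps OSMR, had means from 9.48 to 14.7 TPM.

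The stretches of DNA just before the RefSeq transcription start are shown for the 3 ligands with a promoter at hand. Of these ligands, 2 carry the NF-kB letters and the third had the highest rise under MLN4924. The stretches are 250 bases long, read 5′ to 3′ on the gene's strand from RefSeq promoters of GRCh38.p14, and capitals mark matches. The IL6 stretch and the LIFR promoter lie inside the gene spans given above, so these RefSeq starts lie downstream of the GENCODE starts. IL6 is shown from chr7:22726950-22727199 (plus strand), IL11 from chr19:55370464-55370713 (minus strand) and CSF2 from chr5:132073539-132073788 (plus strand).
IL6: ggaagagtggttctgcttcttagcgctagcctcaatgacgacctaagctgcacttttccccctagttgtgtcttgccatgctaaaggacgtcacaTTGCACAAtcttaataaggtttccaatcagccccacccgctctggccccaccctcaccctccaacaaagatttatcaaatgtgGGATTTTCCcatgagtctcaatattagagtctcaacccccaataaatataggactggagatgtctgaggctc
IL11: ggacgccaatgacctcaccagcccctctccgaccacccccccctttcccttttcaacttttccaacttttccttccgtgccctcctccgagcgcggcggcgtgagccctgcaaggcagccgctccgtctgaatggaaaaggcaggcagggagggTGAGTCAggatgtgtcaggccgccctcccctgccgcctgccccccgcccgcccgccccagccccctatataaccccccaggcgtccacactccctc
CSF2: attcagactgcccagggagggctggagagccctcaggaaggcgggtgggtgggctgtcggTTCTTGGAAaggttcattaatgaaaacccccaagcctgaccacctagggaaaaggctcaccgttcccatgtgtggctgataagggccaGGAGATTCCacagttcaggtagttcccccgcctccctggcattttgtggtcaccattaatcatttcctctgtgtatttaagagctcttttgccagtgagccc
In IL6 the capitals mark TTGCACAA, a match of the C/EBP letters that starts 155 bases before the start site, and GGATTTTCC, a match of the NF-kB letters that starts 72 bases before it. The match in IL11 is TGAGTCA, the AP-1 letters, 96 bases before the start. CSF2 holds TTCTTGGAA, a match of the STAT letters 190 bases before the start, and GGAGATTCC, a match of the NF-kB letters 102 bases before it.
RefSeq promoters of 300 bases, 250 before and 50 from the start on, were at hand for 7 members, the others being LIF, CSF1 and CSF3. Both strands were searched for 5 motifs, with overlaps between motifs allowed. The NF-kB letters GGANNTTCC stood in 2 of the 7 (IL6 and CSF2) and in 4.59% of 27305 promoters of that length. AP-1 letters (TGANTCA) stood in 3 of the 7 (IL11, IL6R and OSMR) and in 7.76% of promoters. The letters TTGCNNAA of C/EBP were found in 2 (IL6 and OSMR; 10.6% of promoters), the STAT letters TTCNNNGAA in 2 (CSF2 and LIFR; 7.88%), and TATAAA in 0 (12%). A match describes these letters in this window only, and binding was not measured.

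Expression is given as TPM, transcript abundance per length that the authors scaled to the same total in each library, and how many reads stand behind a value cannot be read from it. Log2 fold changes are of TPM + 0.1 with their standard error (SE), tested with limma over 19932 genes, and a gene was called at a Benjamini-Hochberg adjusted p below 0.05. CDKN2A, the target of the hairpin, was at 183 ± 6.49 TPM in Ctrl and 59.3 ± 1.47 in shARF (mean ± SD, n = 3), a log2 fold change of −1.63, and at 118 ± 16.4 TPM in MLN and 47.5 ± 6.40 in Both (−1.31). Its row counts the transcripts of p14ARF and p16INK4a together. Of the epithelial markers KRT8, KRT18, EPCAM and CDH1 the summed level lay between 371 and 414 TPM in Ctrl and between 271 and 303 in MLN. With the hairpin the sum lay between 634 and 727 TPM in shARF and between 230 and 244 in Both. The leukocyte markers PTPRC, CD3E and ITGAM and the macrophage markers CD14 and CD163 were below 1 TPM in all 12 libraries, while CD68, which many epithelial lines express, was at means from 84.6 to 545 TPM. Of the 3 fibroblast markers, COL1A2 had means of 6.73 and 1.47 TPM in Ctrl and MLN and of 54.5 and 4.26 TPM in shARF and Both, COL1A1 of 7.27 and 18.2 TPM in Ctrl and MLN and of 4.04 and 6.08 TPM in shARF and Both, and PDGFRB was below 1 TPM. PECAM1, of the endothelial markers, was at 11.7 TPM in Ctrl and 1.91 in shARF, and at 0.579 in MLN and 0.173 in Both, on average, with CDH5 and VWF below 1 TPM. The part of these changes in the results was not tested. The luminal prostate markers KLK3 and TMPRSS2 were below 1 TPM in all 12 libraries.

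With MLN4924 some ligand transcripts of PC3 cells stood at other levels than with DMSO, while CSF1 and CSF2 were not called. IL11 and IL6 rose, CSF3 and LIF fell, and the receptor chains IL6R and LIFR rose in MLN against Ctrl. Of the 10 members 4 were called higher and 2 lower, beside 32.2% and 29.4% of all genes tested, and 2 (IL11 and CSF3) were called beyond a log2 fold change of 2, as were 9.43% of all genes. In cells with the hairpin, Both against shARF, 6 members were called higher (IL6, IL11, CSF2, CSF3, IL6ST and OSMR) and IL6R was called lower, beside 28.3% and 32.8% of all genes, with 3 beyond a log2 fold change of 2 (IL6, IL11 and CSF2; 9.19% of all genes). PC3 is a single line, and in bulk RNA a change in the share of cells that express a gene and a change in RNA per cell cannot be told apart.

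The hairpin alone went with lower levels of all 6 ligands. In shARF against Ctrl, 8 members were called lower and 2 higher (IL6R and LIFR), beside 20.4% and 21% of all genes. Beyond a log2 fold change of 2 there were 5 members, each a ligand, against 3.19% of all genes. Under MLN4924, in Both against MLN, the 6 ligands were again lower, as were IL6R and OSMR, and IL6ST and LIFR were not called. All 8 members called were lower (20.6% of all genes were called lower and 11.8% higher), and 3 were beyond a log2 fold change of 2 (IL6, CSF2 and CSF3; 2.41% of all genes). Over all genes the calls in this comparison split into 2352 higher and 4112 lower, and with median-of-ratios scaling into 3439 and 3608, a share of higher calls of 36.4% against 48.8%. The count of 8 lower members was the same under that scaling. The 4 comparisons share libraries in pairs, so their values are given side by side and are not independent.

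**Figure D1:**
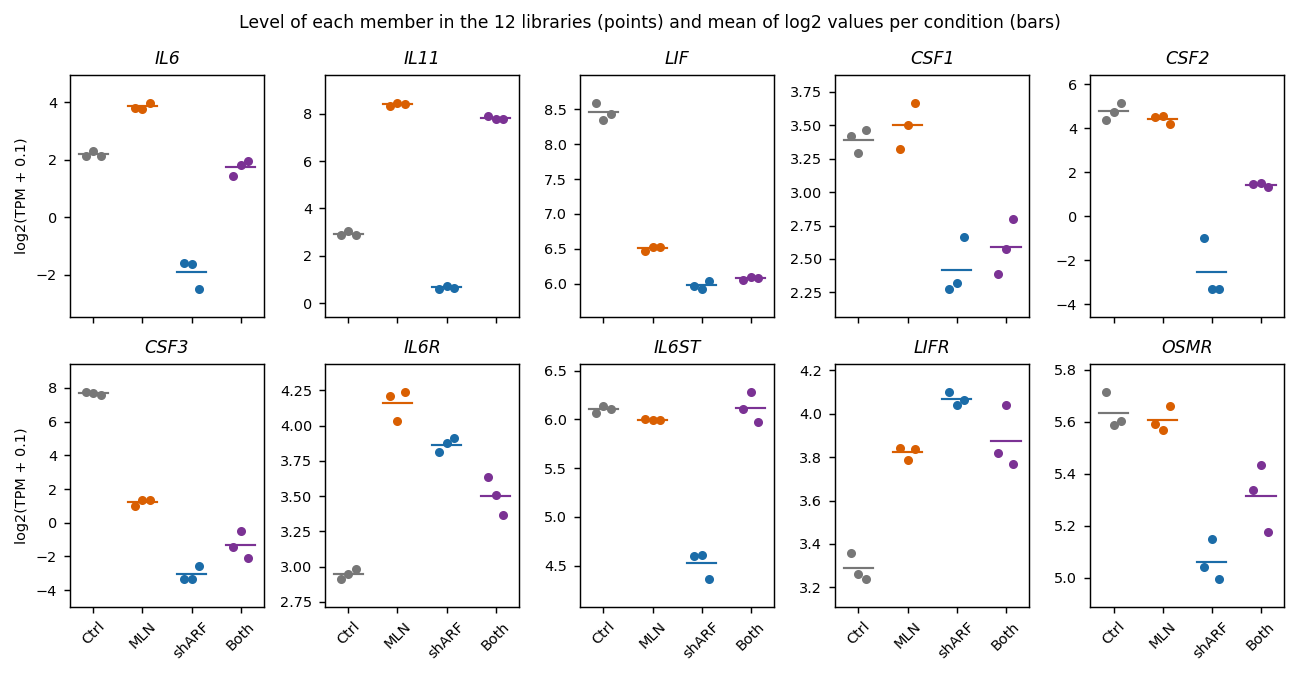
Level of each of the 10 members as log2(TPM + 0.1), with 1 point per library and a bar at the mean of the 3 libraries of each condition; the vertical axes differ between genes. IL11 is high in MLN and Both, CSF3 is high in the Ctrl libraries, and IL6ST is low in the shARF libraries.

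IL6, the founding member of the family and a driver of the acute phase response, was raised by MLN4924 in both kinds of cell and lowered with the hairpin in both. IL6 was at 4.30, 4.77 and 4.26 TPM in the Ctrl libraries and at 13.8, 13.6 and 15.7 TPM in the MLN libraries. With the hairpin it was at 0.228, 0.225 and 0.0767 TPM in shARF and at 2.61, 3.38 and 3.81 TPM in Both. No pair of neighbouring conditions overlapped, and the order from low to high was shARF, Both, Ctrl and MLN. The log2 fold change was 1.67 (SE 0.091, adjusted p = 3.04e-05) in MLN against Ctrl, a mean 3.23 times as high, and 3.64 (SE 0.31, adjusted p = 0.000159) in Both against shARF. In TPM the rise was 9.92 without the hairpin and 3.09 with it. Against Ctrl, shARF was lower by a log2 fold change of −4.09 (SE 0.28, adjusted p = 0.000454), and against MLN, Both was lower by −2.12 (SE 0.15, adjusted p = 0.000662). Since the shARF libraries lay near the pseudocount, the rise in Both against shARF was 1.85 and the fall in shARF against Ctrl −2.21 with a pseudocount of 1, both still called.

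IL11, which signals through IL11RA and gp130 and is known for its part in fibrosis and bone metastasis, had the highest rise of the members. Ctrl libraries held 7.20, 8.18 and 7.17 TPM of IL11 and MLN libraries 317, 354 and 338 TPM. In shARF it was at 1.41, 1.57 and 1.49 TPM, and in Both at 236, 217 and 220 TPM. Among all 43622 genes IL11 moved from rank 10044 in Ctrl to rank 450 in MLN by mean TPM, and from rank 13304 in shARF to rank 735 in Both. The mean was 44.8 times as high in MLN as in Ctrl (log2 fold change 5.47, SE 0.072, adjusted p = 9.04e-07) and 151 times as high in Both as in shARF (log2 fold change 7.14, SE 0.058, adjusted p = 2.78e-07). The 2 rises amounted to 329 and 223 TPM, so the hairpin cells had the larger ratio and the smaller gain in TPM. Without the drug IL11 was lower in shARF than in Ctrl (−2.26, SE 0.094, adjusted p = 0.00011), and with it lower in Both than in MLN by a log2 fold change of −0.58 (SE 0.065, adjusted p = 0.00221). Its specific chain IL11RA moved the other way with the drug and was called lower in either background (−0.51 and −1.42). Mean levels of IL11RA were 5.26 and 3.64 TPM in Ctrl and MLN and 4.17 and 1.51 TPM in shARF and Both. In Both against MLN, IL11RA was called lower (−1.23, adjusted p = 0.00416), as IL11 was. For shARF against Ctrl, IL11RA was not called (−0.32, adjusted p = 0.0907).

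LIF, which holds mouse embryonic stem cells undifferentiated and acts in embryo implantation, was the most abundant of the 6 ligands in Ctrl and had its highest level there. Its levels were 387, 326 and 345 TPM in Ctrl and 88.2, 91.9 and 92.3 TPM in MLN. They were 62.6, 60.5 and 65.5 TPM in shARF and 66.2, 68.4 and 67.4 TPM in Both. Ctrl stood apart from the 3 other conditions, which lay between 60.5 and 92.3 TPM. MLN4924 lowered LIF by a log2 fold change of −1.95 (SE 0.072, adjusted p = 9.22e-06) in the cells without the hairpin. In the cells with it the difference was 0.10 (SE 0.041, adjusted p = 0.0775), and it was called with median-of-ratios scaling and without shARF library 5. Cells with the hairpin had less LIF than those without it, by −2.48 (SE 0.073, adjusted p = 5.11e-05) with DMSO and by −0.43 (SE 0.042, adjusted p = 0.0015) with MLN4924.

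CSF3, which drives the production of neutrophils, had the widest range of the members on the log2 scale. In the Ctrl libraries it was at 214, 207 and 192 TPM, rank 752 of all genes, and in MLN at 1.86, 2.44 and 2.45 TPM. It was listed at 0 in shARF libraries 1 and 3 and at 0.0715 TPM in library 5, and was at 0.270, 0.616 and 0.132 TPM in Both. The mean was 91.0 times as high in Ctrl as in MLN (log2 fold change −6.45, SE 0.12, adjusted p = 1.70e-06). Against Ctrl, shARF was called lower (adjusted p = 2.44e-05), with a log2 fold change of −10.7 that becomes −7.65 with a pseudocount of 1 and −13.3 with 0.01. Both was called lower than MLN (−2.56, SE 0.43, adjusted p = 0.00745; −1.29 with a pseudocount of 1). Both was also called higher than shARF (1.72, SE 0.48, adjusted p = 0.0226), at levels under 1 TPM. That call was lost with a pseudocount of 1 and without Both library 2, shARF library 1 or shARF library 3, with adjusted p up to 0.0737.

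CSF2, a growth factor of granulocytes, macrophages and dendritic cells, fell with the hairpin and did not pass the test for MLN4924 in the cells without it. It was at 20.8, 27.0 and 35.9 TPM in Ctrl and at 22.5, 23.1 and 18.2 TPM in MLN, ranges that overlapped. In shARF it was at 0.400 TPM in library 1 and listed at 0 in libraries 3 and 5, and in Both at 2.66, 2.70 and 2.41 TPM. The difference of MLN from Ctrl was −0.36 on the log2 scale (SE 0.21, adjusted p = 0.179). Ctrl library 1 was the lowest of its group, and without it the difference was −0.56 and was called (adjusted p = 0.0448), whereas without Ctrl library 3, the highest, it was −0.16 (adjusted p = 0.441). In hairpin cells CSF2 was higher with MLN4924, by a log2 fold change of 3.98 (SE 0.66, adjusted p = 0.00271). This value rests on libraries listed at 0 and was 1.68 with a pseudocount of 1 and 6.24 with 0.01. Against Ctrl, shARF was lower by −7.32 (SE 0.72, adjusted p = 0.00128), or −4.66 and −9.63 with those pseudocounts, and Both was 8.21 times lower than MLN by the means (−2.98, SE 0.12, adjusted p = 0.000207).

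CSF1, which sustains macrophages and their precursors, was lower with the hairpin and did not pass the test for the drug. Levels were 10.6, 9.72 and 10.9 TPM in Ctrl, 9.91, 11.2 and 12.6 TPM in MLN, 4.74, 4.90 and 6.24 TPM in shARF and 5.14, 5.86 and 6.87 TPM in Both. Each library with the hairpin lay below each library without it. The log2 fold change was −0.97 (SE 0.12, adjusted p = 0.00293) in shARF against Ctrl and −0.91 (SE 0.14, adjusted p = 0.00598) in Both against MLN. For the drug it was 0.11 (SE 0.11, adjusted p = 0.421) without and 0.17 (SE 0.16, adjusted p = 0.385) with the hairpin.

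Summed over the 6 ligands, Ctrl libraries held between 582 and 645 TPM, MLN libraries between 453 and 496, shARF libraries between 67.2 and 73.3 and Both libraries between 298 and 313. In Ctrl, LIF made up 58.0% ± 2.10 and CSF3 33.7% ± 1.70 of the sum (SD, n = 3), with 1.24% ± 0.15 from IL11. In MLN, IL11 made up 70.6% ± 0.71, LIF 19.1% ± 0.50 and CSF3 0.471% ± 0.053. In shARF, LIF made up 89.8% ± 0.51 and CSF1 7.55% ± 0.87. In Both, IL11 made up 73.8% ± 1.40 and LIF 22.2% ± 0.91. The drug-treated cells thus had IL11 as their leading ligand with and without the hairpin, and the DMSO cells had LIF.

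Among the receptor chains, IL6ST fell with the hairpin in DMSO and was higher with both the hairpin and MLN4924 than with the hairpin alone. The gp130 transcript was at 66.9, 70.5 and 68.6 TPM in Ctrl and at 64.2, 63.6 and 63.7 TPM in MLN. With the hairpin it was at 24.2, 24.3 and 20.5 TPM in shARF and at 69.0, 77.6 and 62.8 TPM in Both. The shARF libraries lay below all others, the MLN libraries lay just below the Ctrl libraries, and the range of Both covered those of Ctrl and MLN. The fall in shARF against Ctrl was −1.58 on the log2 scale (SE 0.075, adjusted p = 0.000159) and the rise in Both against shARF 1.60 (SE 0.10, adjusted p = 5.26e-05). MLN lay below Ctrl in every library, by a log2 fold change of −0.10 (SE 0.039, adjusted p = 0.0568), and was called without Ctrl library 1 and with a pseudocount of 0.01. Both against MLN gave 0.12 (SE 0.081, adjusted p = 0.296).

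IL6R, the chain that binds IL6, was lowest in Ctrl. Its levels were 7.43, 7.63 and 7.82 TPM in Ctrl, 18.4, 16.3 and 18.8 TPM in MLN, 13.9, 14.6 and 14.9 TPM in shARF and 12.3, 11.3 and 10.2 TPM in Both. The 4 conditions did not overlap, in the order Ctrl, Both, shARF and MLN. MLN4924 raised it in the cells without the hairpin (1.21, SE 0.074, adjusted p = 4.47e-05) and lowered it in those with it (−0.36, SE 0.081, adjusted p = 0.00952). Cells with the hairpin had more IL6R than those without it in DMSO (0.92, SE 0.045, adjusted p = 0.000178) and less in MLN4924 (−0.66, SE 0.096, adjusted p = 0.00492).

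LIFR, the chain that LIF binds, was also lowest in Ctrl, and the other 3 conditions lay close together. Levels were 10.2, 9.51 and 9.35 TPM in Ctrl, 14.2, 13.7 and 14.2 TPM in MLN, 17.0, 16.3 and 16.6 TPM in shARF and 14.0, 16.4 and 13.5 TPM in Both. It rose in MLN (0.53, SE 0.060, adjusted p = 0.000502) and in shARF (0.78, SE 0.046, adjusted p = 0.000293) against Ctrl. Both did not pass the test against shARF (−0.19, SE 0.081, adjusted p = 0.0878) or against MLN (0.05, SE 0.086, adjusted p = 0.666). Without Both library 3, the highest of its group, the first of these was −0.27 and was called, and the second turned to −0.03.

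OSMR, the receptor chain of oncostatin M and IL31, was lower with the hairpin and did not pass the test for MLN4924 without it. It was at 52.4, 48.0 and 48.5 TPM in Ctrl, 48.2, 47.3 and 50.5 TPM in MLN, 32.8, 35.4 and 31.8 TPM in shARF and 40.3, 43.2 and 36.1 TPM in Both. Ctrl and MLN overlapped (−0.03, SE 0.053, adjusted p = 0.693), and shARF lay below Ctrl (−0.57, SE 0.056, adjusted p = 0.00129). Both was called higher than shARF (0.25, SE 0.079, adjusted p = 0.0328) and lower than MLN (−0.29, SE 0.076, adjusted p = 0.0321). The first of these calls was lost without Both library 2 or 3 or shARF library 1 or 5, and the second without any 1 of the MLN libraries or Both library 2, with adjusted p up to 0.103 and 0.0954.

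**Figure D2:**
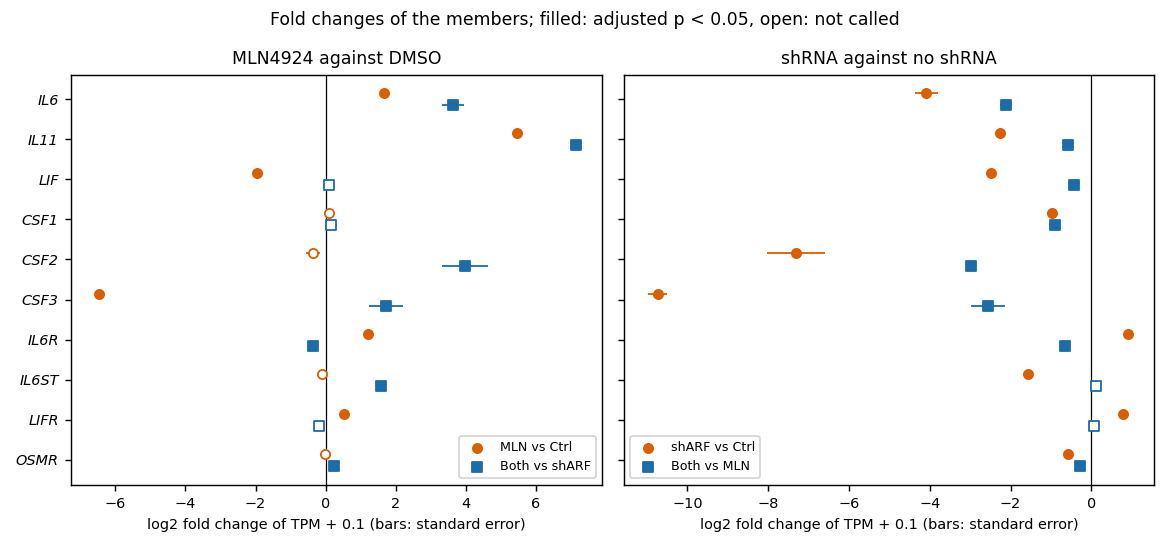
Log2 fold change of TPM + 0.1 with its standard error for the 10 members, on the left for MLN4924 against DMSO and on the right for cells with against cells without the hairpin; filled symbols are called at an adjusted p below 0.05. The values on the left with and without the hairpin lie closest together for CSF1 and OSMR, and on the right each ligand lies below 0.

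Whether MLN4924 acted differently in the cells with the hairpin was tested as an interaction, (Both minus shARF) minus (MLN minus Ctrl), over the 12 libraries. The interaction was above 0 and called for 6 members (IL6, IL11, LIF, CSF2, CSF3 and IL6ST) and below 0 for 2 (IL6R and LIFR), beside 11.2% and 17.1% of all genes. For LIF it was 2.05 (SE 0.088, adjusted p = 3.13e-08), a fall without the hairpin beside no called change with it. For CSF3 it was 8.17 (SE 0.48, adjusted p = 4.18e-07), but the hairpin libraries were at or near 0 TPM. For IL6ST it was 1.70 (SE 0.11, adjusted p = 1.14e-06), a rise with the hairpin beside no called change without it. That of IL6R was −1.57 (SE 0.12, adjusted p = 2.45e-06), where the drug had opposite signs and was called in both kinds of cell. The interaction of IL6 (1.97, SE 0.32, adjusted p = 0.00073) was 0.35 and not called with a pseudocount of 1 (adjusted p = 0.117). CSF1 and OSMR were not called (0.06, adjusted p = 0.845, and 0.28, adjusted p = 0.0568). Over all genes the calls split into 2229 above and 3416 below 0 (39.5% above), and with median-of-ratios scaling into 3214 and 2788 (53.5%).

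The wider pathway was read in 43 further genes, of which 32 passed the filter and 11 did not. The receptors of the colony-stimulating factors were near the limit of detection, with at most 0.234 TPM of CSF1R, 0.122 of CSF2RA, 0.063 of CSF2RB and 0.0374 of CSF3R in any library. Oncostatin M (OSM), IL27, IL31 and CNTFR were also below the filter, at no more than 0.166 TPM in any library. STAT3, the main transcription factor of gp130 signalling, reached at most 0.0355 TPM and was listed at 0 in 9 of 12 libraries, and STAT5A and STAT5B were listed at 0 in all 12. PC3 is known as a line that lacks STAT3.

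MLN against Ctrl called 13 of the 32 higher and 14 lower, beside 32.2% and 29.4% of all genes, with a median log2 fold change of −0.13 beside 0.05 over all genes. Both against shARF called 12 higher and 8 lower (28.3% and 32.8% of all genes; median 0.06 beside −0.04). In shARF against Ctrl 5 were higher and 13 lower (21% and 20.4% of all genes; median −0.31 beside 0), and in Both against MLN 2 were higher and 16 lower (11.8% and 20.6% of all genes; median −0.36 beside −0.08). Among 9 other ligands, 6 of them tested, CLCF1, a gp130 ligand that signals with CNTFR, rose with the drug from 15.3 ± 0.92 to 68.1 ± 6.71 TPM without and from 18.2 ± 1.05 to 73.1 ± 6.42 TPM with the hairpin (2.14 and 2.0, SD, n = 3). EBI3, a subunit of IL27 and IL35, fell with the hairpin from 5.56 ± 1.46 to 0.531 ± 0.19 TPM with DMSO and from 4.54 ± 0.29 to 0.351 ± 0.24 TPM with MLN4924 (−3.17 and −3.52). Of the other receptors, IL31RA, which pairs with OSMR, fell with the hairpin from 8.74 to 3.91 TPM with DMSO and from 10.3 to 4.89 TPM with MLN4924 on average (−1.14 and −1.06), and IL27RA rose in MLN from 16.6 to 23.1 TPM (0.48). JAK1, a kinase bound to gp130, was lower than in Ctrl (77.7 TPM) in MLN (51.4 TPM, −0.60) and shARF (52.6 TPM, −0.56).

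All 7 feedback genes were called in MLN against Ctrl, 3 higher and 4 lower, beside 32.2% and 29.4% of all genes. SOCS3, the inhibitor of gp130, went from 39.2 ± 3.36 TPM in Ctrl to 64.5 ± 3.86 TPM in MLN, and from 22.1 ± 1.62 TPM in shARF to 28.0 ± 0.49 TPM in Both (0.72 in MLN against Ctrl, −0.82 in shARF against Ctrl, −1.20 in Both against MLN). CISH (1.83) and SOCS1 (1.10) also rose in MLN, and SOCS2 (−1.69), PTPN2 (−1.08), PIAS3 (−0.44) and DUSP6 (−0.24) fell. SOCS2 fell with the hairpin, from 24.6 TPM in Ctrl to 3.36 in shARF (−2.84), and DUSP6, a phosphatase of ERK, fell from 291 to 118 TPM there (−1.30) and was at 254 TPM in Both. In Both against MLN 5 of the 7 were called, each lower, beside 20.6% of all genes called lower and 11.8% higher (18.1% and 17.3% with median-of-ratios scaling).

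The 10 genes known to be induced by STAT3 in other cells were all called in MLN against Ctrl, 5 higher and 5 lower (32.2% and 29.4% of all genes), so they did not move one way. PIM1, a kinase, rose from 55.4 ± 4.86 to 199 ± 24.8 TPM (1.84), CEBPB, a transcription factor, from 116 ± 1.92 to 296 ± 10.8 TPM (1.34), and JUNB, MCL1 and TIMP1 rose by 0.90, 0.62 and 0.79. CEBPD, of the same family as CEBPB, fell from 29.8 ± 2.20 to 4.79 ± 1.35 TPM (−2.65), and LRG1, an acute phase glycoprotein, from 7.09 ± 0.52 to 1.77 ± 0.36 TPM (−1.96). BCL3 and VEGFA fell by −0.90 and −0.31 on the log2 scale. With the hairpin, CEBPD was at 3.16 TPM in shARF and LRG1 at 22.5 TPM, so the 2 genes moved apart there (−3.22 and 1.65). In Both against shARF 6 of the 10 were higher (28.3% of all genes), and LRG1 was lower (32.8% of all genes), from 22.5 to 0.680 TPM (−4.89).

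For each member, the 3 genes with the most similar pattern were sought among the 14663 genes whose mean reached 1 TPM, by the root mean square (RMS) difference of the centred log2 means over the 4 conditions, as a description with no test. BCL2A1 (RMS difference 0.24), SERPINB2 and AGTR1 were nearest to IL6. Nearest to IL11 were AC022601.1 (0.26), IL1RL1 and HKDC1, to LIF ANPEP (0.15), NFE2L3 and AC241585.3, and to CSF1 CERNA1 (0.032), C7orf31 and F11R. The steep patterns of CSF2 and CSF3 had more distant neighbours, with INHBA (0.66), CACNA1S and VNN3 for CSF2 and SAA1 (0.59), LCN2 and C3 for CSF3. SAA1, for example, had means of 72.6 and 0.585 TPM in Ctrl and MLN and of 0 and 0.0662 TPM in shARF and Both, and BCL2A1 of 94.6, 285, 4.85 and 93.3 TPM in the same order. Among the receptors, IL6R lay nearest to SCARA3 (0.031), IL6ST to RELN (0.096), LIFR to UBALD1 (0.017) and OSMR to CATSPER2 (0.020).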

How the data were processed

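RNA-seq of PC3 cells was read from 1 table with a column for each of 12 libraries, 3 for each of the 4 labelled samples, assigned by the column names. Per the methods, the authors trimmed the reads, mapped them to the human genome (hg38 per the labels) and quantified an Ensembl annotation of GRCh38 in CLC Genomics Workbench. The deposited table holds TPM, and each column sums to 1000000. Depth per library is not given by TPM. Of 43622 genes, 19932 whose mean reached 0.1 TPM were kept, and log2(TPM + 0.1) was fitted in limma 3.58.1 (R 4.3.3; lmFit, then eBayes with a trend), each comparison on its 6 libraries and the interaction on 12, and p-values were adjusted after Benjamini and Hochberg over the whole set tested. The fit was tested on simulated data. Replicates correlated at r between 0.982 and 0.988 on the log2 scale, and no libraries within a condition were identical. Members and pathway lists were chosen with earlier results of these data known. Pathway genes were named with values when called in a comparison and at a mean of 1 TPM or more, and the 3 nearest patterns were taken by the RMS difference. STAT3, the other genes below the filter and the markers were named for the lists they stand in. Library numbers were not used as pairs in the main fits, and deviations of same-numbered libraries from their group means had r between -0.147 and 0.063. These correlations cannot settle whether such libraries shared a culture or batch. Alternatives were pseudocounts of 1 and 0.01, a filter at 1 TPM, no filter, median-of-ratios scaling, eBayes without trend, a replicate block, 12 libraries in one fit and each library left out. Coordinates are from GENCODE 44 and promoters from RefSeq (GRCh38.p14), other releases than the authors' annotation. Some genes of the lists are not reported here by name, but stay in the counts.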

Additional observations from a re-analysis of the deposited data

Results flagged for a closer look

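Differences between cells with and without the hairpin in the response to MLN4924, tested as the interaction with limma over the 12 libraries, drew attention for 8 of the 10 members. Of all genes tested, 11.2% were called above 0 and 17.1% below 0. The interaction on the log2 scale was 8.17 for CSF3 (adjusted p = 4.18e-07), 4.34 for CSF2 (adjusted p = 0.00062), 2.05 for LIF (adjusted p = 3.13e-08), 1.97 for IL6 (adjusted p = 0.00073), 1.70 for IL6ST (adjusted p = 1.14e-06) and 1.68 for IL11 (adjusted p = 4.08e-07). It was −1.57 for IL6R (adjusted p = 2.45e-06) and −0.72 for LIFR (adjusted p = 0.000437). For CSF2 and CSF3, 2 of the 3 shARF libraries were listed at 0 TPM, and their values ranged from 2.03 to 6.60 and from 6.36 to 10.4 over the alternatives. With a pseudocount of 1 the interaction of IL6 was 0.35 and was not called (adjusted p = 0.117). CDKN2A was also lower in MLN (118 ± 16.4 TPM) than in Ctrl (183 ± 6.49 TPM, SD, n = 3), and its part in these values was not tested.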

How the results depend on the processing

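Over 50 results for single members (10 members in 5 comparisons), 730 values under the alternatives were computed, of which 688 kept direction and call, 26 lost the call, 11 gained one and 5 turned sign, and 27 of the 50 results changed under no alternative. With a pseudocount of 1, the members called beyond a log2 fold change of 2 fell from 3 to 1 in Both against shARF and from 3 to 1 in Both against MLN, as fold changes of low genes shrink on that scale. The replicate block left 0 of 10 members called in shARF against Ctrl and 0 beyond 2, with 1 residual degree of freedom (limma, adjusted p from 0.0607 to 0.0917; all 10 had an unadjusted p under 0.05, and no gene of the whole table was called), and also lost LIFR in MLN against Ctrl. The numbers are undescribed, and whether they pair the samples cannot be settled from these values. In Both against shARF and Both against MLN the block was not run because the groups share 1 number. Signs turned when a library was left out for OSMR in MLN against Ctrl (−0.0537 to 0.0134), LIFR in Both against MLN (−0.0283 to 0.11) and CSF1 in the interaction (−0.0438 to 0.185), none of them called. The other lost calls were those given above for CSF3, OSMR and IL6, and OSMR without the trend. Further gained calls were LIFR in Both against shARF with 12 libraries in one fit, and OSMR in the interaction with a filter at 1 TPM, with median-of-ratios scaling, without Both library 4 and without shARF library 3. The cause of these changes was not tested. TPM carries no depth, so values under 1 TPM have an unknown counting error.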
